A study of Homo sapiens with 4 samples.

Results

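The 4 human alkaline phosphatase genes, ALPP, ALPG, ALPI and ALPL, were compared between the naïve and the primed state of human embryonic stem cells (hESCs). Every transcript whose gene symbol was one of these names was taken, which gave 13 of the 242542 transcripts matched to the annotation and 4 of its 62218 genes. ALPP had 3 transcripts, ALPG 1, ALPI 2 and ALPL 7. The data are 4 Nanopore cDNA libraries of H1, an established wild-type hESC line. Primed hESCs, labelled TesR, were grown in mTeSR1 medium on Matrigel at normal oxygen. Naïve hESCs, labelled FINE, were derived from the same H1 line and grown at low oxygen in a medium with LIF, Activin A, bFGF and the inhibitors Dasatinib, AZD5438, SB590885, PD0325901 and Y-27632. Each state has 2 replicates of this line, and medium, oxygen and state cannot be told apart. The labels do not say whether replicates were separate cultures, so p-values measure only the spread between these libraries, which may be technical.

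Alkaline phosphatases are enzymes that sit on the outer face of the cell membrane, held there by a glycosylphosphatidylinositol (GPI) anchor, and remove phosphate groups from many substrates. ALPL encodes the tissue-nonspecific form of bone, liver and kidney, which cleaves pyrophosphate during mineralization and the phosphate forms of vitamin B6. ALPP encodes the placental form, ALPG the germ-cell or placental-like form, and ALPI the intestinal form, and these lie side by side on the long arm of chromosome 2. Alkaline phosphatase activity is a common stain for pluripotent stem cells, and the stain does not tell which gene the enzyme came from.

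The members moved in opposite directions between the states. ALPG and ALPP had nearly all of their counts in naïve hESCs, with fitted levels 146-fold and 92.4-fold lower in primed hESCs, whereas ALPL was 3.50-fold higher in primed hESCs. ALPI had few counts in naïve hESCs and 0 in primed hESCs. ALPG held 88.8% and 87.1% of the per-length signal of the 4 genes in the naïve libraries, and ALPL held 97.6% and 96.8% in the primed libraries.

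The total was between 129276054 and 161548901 counts per library over all transcripts. At the gene level the library size was 23542380 to 30978794 counts, and the TMM factors were 0.779 and 0.824 for the naïve replicates and 1.25 and 1.24 for the primed replicates. In this report a gene's count is the count of its isoform with the most counts, a level is that count in CPM (the count scaled to library size) after TMM normalization, and a level per length is CPM per kilobase of exons. A count of 0 allows up to 3 counts, which is 0.0978 to 0.130 CPM depending on the library. The reads carry no molecular identifiers, so this limit and the intervals given for shares and ratios hold for counting error alone. Marker genes followed the labels. All 8 markers of the naïve state were lower in primed hESCs, or 7 of 8 with library size in place of TMM, and all 8 markers of the primed state were higher under both scalings. KLF17 is the marker that loses its call. Another annotated gene inside the span held 99.2% of the count of KLF17, 92.0% of that of DNMT3L, 92.0% of that of THY1 and 68.7% of that of SALL2, so these markers are less certain than the others.

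The sequences of the members set what a count on each can mean, because the deposited counts include every place where a read aligned. Transcript positions are on GRCh38. All 4 genes lie on the plus strand. ALPP-201 (ENST00000392027, gene ENSG00000163283) lies at chr2:232378751-232382889 with 11 exons, and 23954 bases separate it from ALPG-201 (ENST00000295453, gene ENSG00000163286) at chr2:232406844-232410714, also with 11 exons. ALPI-201 (ENST00000295463, gene ENSG00000163295) follows after another 45438 bases at chr2:232456153-232460753, again with 11 exons. ALPL-204 (ENST00000374840, gene ENSG00000162551) has 12 exons over 68988 bases at chr1:21509423-21578410. The coding sequences of ALPG and ALPP were 97.8% identical, with 35 mismatches over 1599 aligned bases and an identical run of 339 bases. ALPI was 89.5% identical to ALPG and 89.7% to ALPP, while ALPL was between 67.7% and 68.7% identical to the other members.

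Identity between ALPG and ALPP was uneven along the transcript. Exon 9 was identical over all 192 bases, exon 1 was 88.1% identical and exon 11 was 85.4% identical. After the stop codon the identity was 80.8%, against 77.2% between ALPG and ALPI. To show how alike the copies are, a stretch of 90 coding bases that is identical in both genes is given for ALPG, with no capitals since no base differs. The same stretch of ALPP is at chr2:232379531-232379620.
ALPG exon 4, chr2:232407612-232407701, plus strand: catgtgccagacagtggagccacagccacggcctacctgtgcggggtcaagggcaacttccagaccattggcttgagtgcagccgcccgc
A read that covers only this sequence matches both genes.

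**Figure D1:**
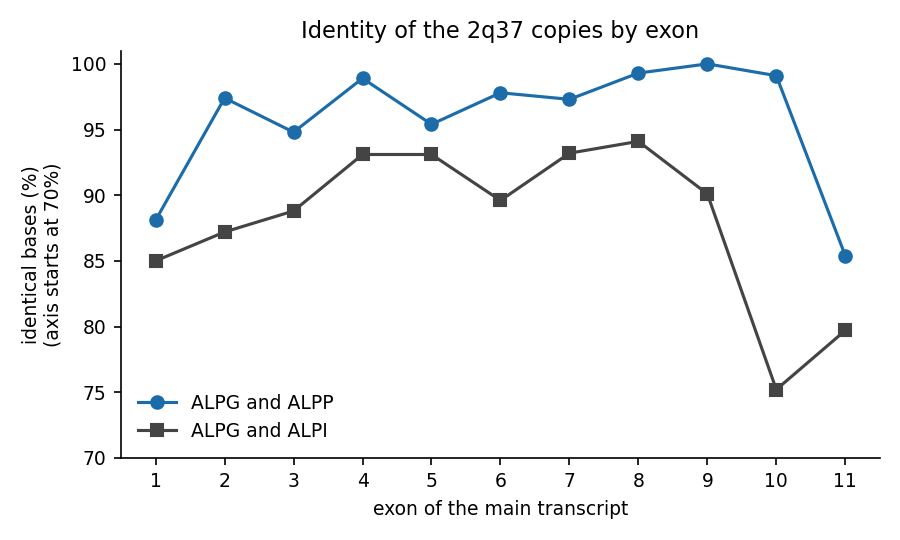
Share of identical bases (%) in each exon of the main transcript, for ALPG against ALPP (circles) and ALPG against ALPI (squares), with an axis that starts at 70%. ALPG and ALPP reach 100% in exon 9 and are lowest in exon 11, at 85.4%, and ALPI lies below ALPP in every exon.

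The promoters of the chromosome 2 genes are also alike, and that of ALPL is much richer in CpG dinucleotides. The 250 bases before the RefSeq start of each gene (GRCh38.p14) are given because ALPG and ALPP changed together and ALPL changed the other way. Capitals mark TTTAAA in the first 3 and CpG dinucleotides in ALPL.
ALPG promoter, chr2:232406594-232406843, plus strand: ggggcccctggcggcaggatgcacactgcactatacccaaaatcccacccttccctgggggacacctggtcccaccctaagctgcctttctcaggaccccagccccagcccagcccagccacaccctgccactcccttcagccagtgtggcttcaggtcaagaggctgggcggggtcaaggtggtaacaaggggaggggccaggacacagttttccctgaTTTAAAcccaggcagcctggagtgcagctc
ALPP promoter, chr2:232378501-232378750, plus strand: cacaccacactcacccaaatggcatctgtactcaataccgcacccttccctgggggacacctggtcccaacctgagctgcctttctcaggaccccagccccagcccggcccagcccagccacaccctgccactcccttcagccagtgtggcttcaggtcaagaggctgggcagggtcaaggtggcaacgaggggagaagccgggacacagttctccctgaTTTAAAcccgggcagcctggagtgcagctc
ALPI promoter, chr2:232455903-232456152, plus strand: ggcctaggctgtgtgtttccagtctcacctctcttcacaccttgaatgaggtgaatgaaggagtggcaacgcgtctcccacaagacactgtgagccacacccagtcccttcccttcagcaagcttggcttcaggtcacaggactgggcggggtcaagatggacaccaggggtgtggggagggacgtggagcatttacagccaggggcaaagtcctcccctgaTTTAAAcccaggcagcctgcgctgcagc
ALPL promoter, chr1:21509173-21509422, plus strand: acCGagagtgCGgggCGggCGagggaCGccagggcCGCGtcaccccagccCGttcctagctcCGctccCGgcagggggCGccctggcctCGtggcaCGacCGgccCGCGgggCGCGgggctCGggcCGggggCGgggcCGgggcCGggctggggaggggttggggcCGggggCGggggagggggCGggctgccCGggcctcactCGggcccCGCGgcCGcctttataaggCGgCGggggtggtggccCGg
The ALPG and ALPP windows were 88.5% identical over 244 aligned bases, while ALPI was 73.8% identical to ALPG and 72.9% to ALPP. The letters TTTAAA began 30 bases before the start in ALPG and ALPP and 28 bases before it in ALPI, and did not occur in the ALPL window. Another TATA-like sequence, TATAA, began 27 bases before the start in the ALPL window, with an overlapping match on the other strand, and did not occur in the 3 other windows. Over 35116 windows of the same length, 11.3% held TTTAAA and 18.9% held TATAA. The ALPL window held 34 CpG dinucleotides, more than 93.2% of all windows, against 2 in ALPG, 5 in ALPP, 5 in ALPI and a median of 11. RefSeq lists 2 further ALPL starts, whose windows begin at chr1:21508734 and chr1:21551020 and hold 9 and 8 CpG dinucleotides.

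Further motifs were searched on both strands of these windows. AGGTCA, a half-site of nuclear receptors that 12.1% of all windows hold, occurred 1 time each in ALPG, ALPP and ALPI and not in ALPL. GGGCGG, the GC box held by 42.6% of windows, occurred 1 time each in ALPG and ALPI, 4 times in ALPL and not in ALPP. GCCNNNGGC, the letters read by AP-2 factors and held by 19.8% of windows, occurred 1 time each in ALPG and ALPI and 2 times in ALPL, both overlapping a GGGCGG there, and not in ALPP. Among the letters searched, TTTAAA and AGGTCA were thus shared by ALPG, ALPP and ALPI. Whether any of these letters has a part in the changes was not tested.

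ALPG, the germ-cell form, reached 3626 counts in the first naïve replicate (rep1) and 2456 in the second (rep2), whereas primed rep1 had only 25 counts and primed rep2 had 27. Its level was 157 and 96.2 CPM in naïve hESCs but 0.849 and 0.880 CPM in primed hESCs, so the states did not overlap and the naïve replicates differed from each other far more than the primed replicates. The mean level was 127 ± 43.0 CPM (SD, n = 2) in naïve and 0.864 ± 0.0221 CPM (SD, n = 2) in primed hESCs. The fitted log2 fold change of primed over naïve was -7.19 with a standard error of 0.238 and an adjusted p of 4.81e-28 by edgeR's quasi-likelihood test. The ratio of the summed counts, scaled to the libraries, was 145 with an exact 95% interval of 110 to 194. Over all 27632 genes tested, 70.0% were called in either direction at an adjusted p under 0.05 and 32.6% were called lower in primed hESCs, so a call as such was common between these states. The size of the ALPG change lay beyond the 5th percentile of all log2 fold changes, which was -2.50. With library size in place of TMM the values were -6.54 for ALPG and -5.90 for ALPP.

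ALPP, the placental form, gave 234 and 156 counts in naïve rep1 and rep2 but 1 and 4 counts in the primed replicates. Its levels were 10.1 and 6.11 CPM in naïve and 0.0339 and 0.130 CPM in primed hESCs, with no overlap between the states. The log2 fold change was -6.53 with a standard error of 0.407 and an adjusted p of 2.91e-18 by edgeR's quasi-likelihood test. The ratio of naïve to primed counts was 96.5 with an exact 95% interval of 41.0 to 299, a wide interval because only 5 primed counts stand behind it. The change went to -7.71 without primed rep2 and to -5.91 without primed rep1.

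ALPP kept a near constant proportion to ALPG in naïve hESCs. ALPP made up 6.06% of the counts of both genes in naïve rep1 (95% Wilson interval 5.35% to 6.86%) and 5.97% in naïve rep2 (5.13% to 6.95%). In the primed libraries the proportion was 3.85% (0.682% to 18.9%) and 12.9% (5.13% to 28.9%), intervals too wide to show a difference at this depth. Since ALPG and ALPP share long identical stretches and each place of alignment was counted, counts from ALPP molecules and counts from ALPG reads that also aligned at ALPP cannot be told apart. The intervals above take each count as a separate read, which does not hold for reads counted at both genes. With ALPP, ALPG and ALPI summed to 1 row, a setting chosen after seeing the data, the log2 fold change was -7.15 with an adjusted p of 4.03e-28 by edgeR's quasi-likelihood test. Most counts of this row are ALPG counts and a read aligned at several copies enters it several times, so the row does not test how reads were divided among the copies.

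ALPI, the intestinal form, was found with 7 and 15 counts in naïve hESCs and with 0 counts in both primed replicates. In levels this was 0.303 and 0.588 CPM in naïve hESCs, and the primed zeros allow up to 0.102 and 0.0978 CPM. ALPI did not have 10 counts in 2 libraries and was not tested in the main comparison. Against the limit of 3 counts in each primed library, ALPI was lower in primed hESCs by at least 4.46-fold in mean level. With no count filter the adjusted p was 9.77e-07 and with counts summed over isoforms it was 5.48e-04, both by edgeR's quasi-likelihood test. ALPI entered both settings through its naïve counts alone. The isoform sum adds the 4 and 4 naïve counts of ALPI-202, whose span overlaps that of ALPI-201, so shared alignments enter more than once. These p-values are therefore not added support for a difference. Its naïve counts were 0.170% and 0.528% of the counts of the 4 genes.

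ALPL, the tissue-nonspecific form, went the other way. Its counts were 244 and 216 in naïve hESCs but 1048 and 947 in primed hESCs. The levels were 10.6 and 8.46 CPM in naïve and 35.6 and 30.9 CPM in primed hESCs, and each primed library was above both naïve libraries. The log2 fold change was 1.81 with a standard error of 0.164 and an adjusted p of 5.22e-13 by edgeR's quasi-likelihood test. Among all genes tested 37.4% were called higher in primed hESCs, the median log2 fold change was 0.079 and the 95th percentile was 3.88, so the change of ALPL lay inside the range of most genes. With library size in place of TMM the value for ALPL was 2.45, while the median of all genes moved to 0.715.

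**Figure D2:**
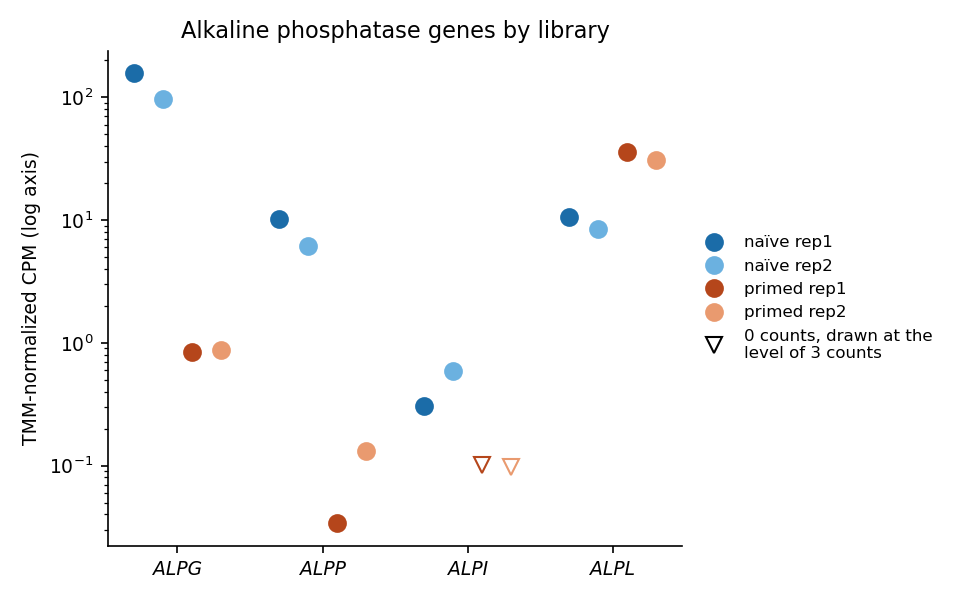
Level of each gene in TMM-normalized CPM (log axis) in each of the 4 libraries, with blue points for naïve and orange points for primed hESCs. ALPG and ALPP are higher in both naïve libraries, ALPL is higher in both primed libraries, and the open triangles place the 2 primed zeros of ALPI at the level of 3 counts.

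The order of the genes also differed between the states, compared as levels per length. In naïve hESCs ALPG was first with a mean of 50.8 CPM per kilobase, followed by ALPL with 3.75, ALPP with 2.95 and ALPI with 0.137. ALPL was above ALPP within both naïve libraries, at 4.17 against 3.68 CPM per kilobase in naïve rep1 and 3.34 against 2.22 in naïve rep2, although the values of the genes overlap between the libraries. In primed hESCs ALPL was first with 13.1 CPM per kilobase, followed by ALPG with 0.347 and ALPP with 0.0298, and ALPI was at 0. Thus ALPG exceeded ALPL 15.1-fold and 11.6-fold per length in the naïve libraries, and ALPL exceeded ALPG 41.2-fold and 34.5-fold in the primed libraries.

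The exchange of genes did not leave the sum unchanged. Summed over the 4 genes, the level per length was 71.0 and 44.3 CPM per kilobase in naïve hESCs and 14.4 and 12.6 in primed hESCs. The means were 57.7 ± 18.8 (SD, n = 2) and 13.5 ± 1.28 (SD, n = 2) CPM per kilobase, a ratio of 4.28 of naïve to primed. This ratio holds for TMM and was not computed with library size, which moved ALPG, ALPP and ALPL towards higher in primed hESCs. A read aligned at several copies enters the sum several times. The states did not overlap in this sum, for which no test was made. The naïve sum follows ALPG, the gene whose naïve replicates lay farthest apart in CPM.

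**Figure D3:**
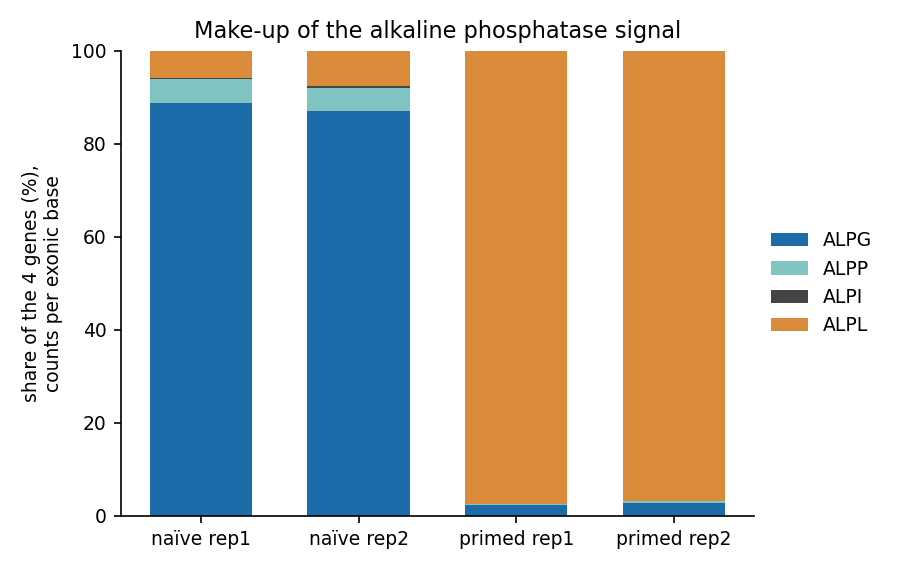
Share (%) of each gene in the counts per exonic base of the 4 alkaline phosphatase genes, with 1 stacked bar per library. ALPG fills 88.8% and 87.1% of the naïve bars, and ALPL fills 97.6% and 96.8% of the primed bars.

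Transcripts of a gene were then compared singly to ask whether the change belonged to particular isoforms. Of the 13 transcripts, 11 had at least 10 counts in at least 2 libraries, and the 2 ALPI transcripts did not. All 11 were called by edgeR's quasi-likelihood test, where 68.9% of the 170036 transcripts tested were called. The 7 ALPL transcripts had log2 fold changes between 1.79 and 1.86, and the 3 ALPP transcripts between -6.92 and -6.47. The near equality within ALPL comes with shared counts, because an alignment counts for each transcript whose span it overlaps. ALPL-204 and ALPL-206, which span nearly the same bases, had the same counts in all 4 libraries, and ALPL-207 had 243, 216, 1036 and 938.

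No member isoform was called for a change in usage. Of the 10 ALPP and ALPL isoforms tested, 0 were called by edgeR's diffSpliceDGE, and 0 had an unadjusted p under 0.05, where 0.556% of 159577 isoforms were called. The smallest unadjusted p was 0.765 for ALPP and 0.809 for ALPL. The difference in isoform fraction, taken from counts per exonic base, lay between -0.0065 and 0.0062 for ALPL and between -0.0897 and 0.0882 for ALPP. The ALPP values rest on 1 to 4 primed counts of the longest transcript and so have little precision.

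Although isoforms could not be separated, the shorter spans of ALPL show where along the gene the alignments lay. ALPL-205 covers the first exon and the upstream part of the gene, from 21509397 to 21564211, and ALPL-201 covers the last part, from 21574478 to 21578399. Of the alignments on ALPL-204, the upstream part was touched by 84.8% and 81.5% in naïve hESCs and by 85.2% and 77.0% in primed hESCs. The last part was touched by 78.3% and 77.3% in naïve hESCs and by 81.4% and 77.8% in primed hESCs. At least 63.1% and 58.8% of naïve and 66.6% and 54.8% of primed alignments therefore touched both parts, and the states overlapped in every one of these shares.

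ALPL also has an inner start, used by ALPL-203, which begins at 21551279. The alignments that missed the ALPL-203 span, and so lay upstream of that start or beyond its end, came to 10.2% and 13.4% in naïve hESCs and to 11.9% and 15.8% in primed hESCs. These shares overlapped between the states and did not differ beyond the spread of the replicates. They do not say how many molecules began at either start.

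Along ALPP the counts were less even. ALPP-202, a retained-intron transcript at the start of the gene (232378724 to 232379784), gave 195 and 111 naïve counts, which is 83.3% and 71.2% of the counts of ALPP-201. ALPP-203, a retained-intron transcript near the end (232381239 to 232382609), had 68 and 58 counts, or 29.1% (95% Wilson interval 23.6% to 35.2%) and 37.2% (30.0% to 45.0%). The summed ratio of first to last part was 2.43 for ALPP in naïve hESCs, against 1.07 in naïve and 1.02 in primed hESCs for the corresponding parts of ALPL. The spans differ in length and in the exons they hold, so these ratios are descriptions. ALPP was 95.2% identical to ALPG over exons 1 to 4, which the first part holds, and 86.7% over exons 10 and 11, which the last part holds in large part. Exons 5 to 9, between these parts, were 98% identical. The span of the antisense gene described below covers exons 5 to 9 and more, and its naïve counts were 55.1% and 51.9% of those of ALPP-201. Whether ALPG reads gave part of the ALPP counts was not tested.

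**Figure D4:**
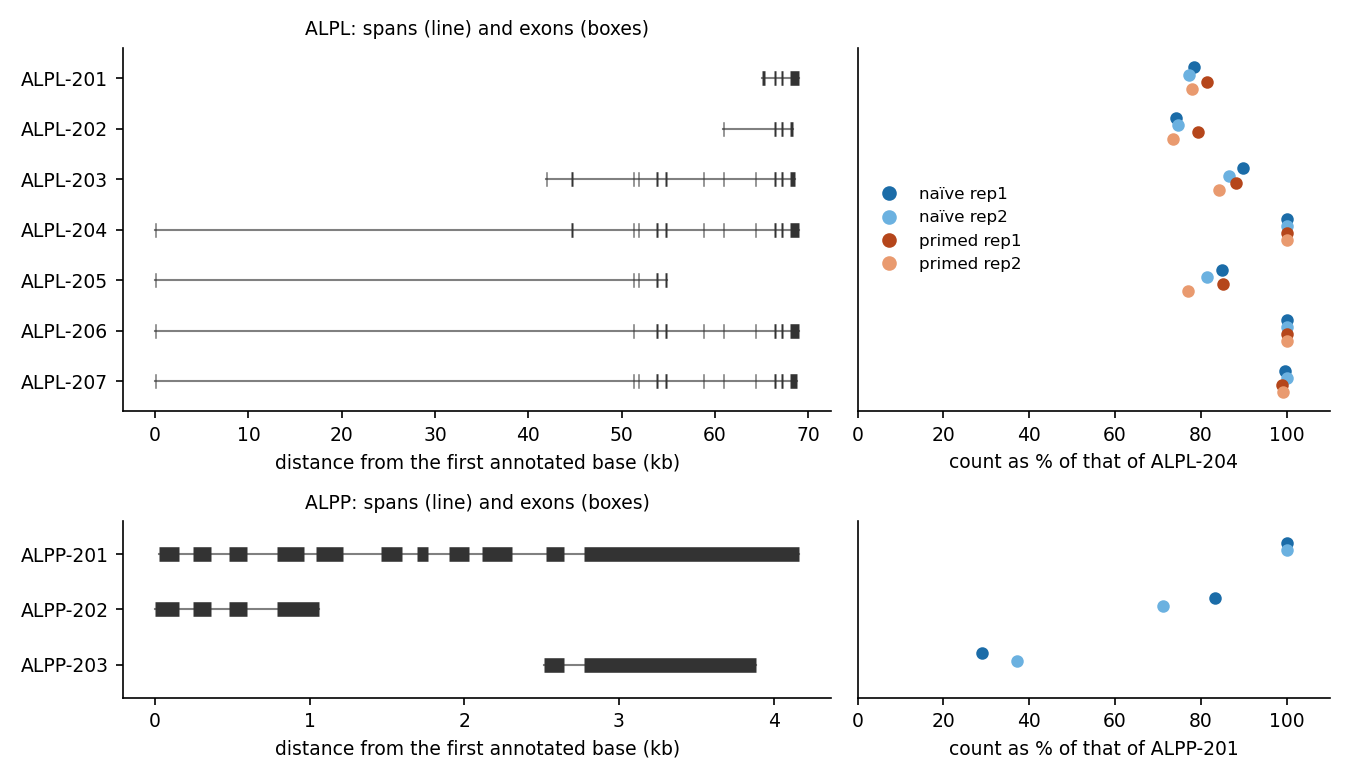
Left, spans (lines) and exons (boxes) of the 7 ALPL and 3 ALPP transcripts by distance from the first annotated base in kilobases. Right, the count of each transcript as a percentage of the count of ALPL-204 or ALPP-201, with a point per library, for ALPP in the naïve libraries only. The ALPL points of both states lie together, and ALPP-202 lies above ALPP-203.

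An antisense gene, ENSG00000224516, lies on the minus strand inside ALPP, from 232379635 to 232381674, and was looked at after its values were seen. Its counts were 129 and 81 in naïve hESCs but 0 and 2 in primed hESCs, a log2 fold change of -6.85 with an adjusted p of 4.21e-15 by edgeR's quasi-likelihood test. The counts ignore strand, so reads from ALPP and from this gene cannot be told apart. Its naïve counts equal 55.1% and 51.9% of those of ALPP.

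Neighbouring genes show whether the members stand alone at their loci. Of the 8 neighbours tested at the chromosome 2 locus, 4 were higher in primed hESCs, 3 were lower and 1 was not called, with a median log2 fold change of -0.03 against 0.079 for all genes. Over all genes 37.4% were higher, 32.6% were lower and 70.0% were called, so calls among so few neighbours are read only as values. With library size in place of TMM these were 4 higher, 2 lower and 2 not called, and the call of EIF4E2, a cap-binding protein, was lost and its sign flipped. ECEL1P1, a pseudogene 5103 bases from ALPG, gave 151 and 106 counts in naïve hESCs but 55 and 51 in primed hESCs, with a log2 fold change of -1.59 and an adjusted p of 4.12e-07 by edgeR's quasi-likelihood test. EFHD1, a mitochondrial calcium-binding protein, fell by 2.53 on the log2 scale, and DIS3L2, an exoribonuclease, rose by 0.44. No neighbour tested here had a change as large as that of ALPG or ALPP. Around ALPL, 4 of 6 neighbours were higher, 1 was lower and 1 was not called, with a median of 0.83, or 5 higher, 0 lower and 1 not called with library size. EIF4G3, a translation initiation factor, rose by 2.26 and HSPG2, the basement membrane proteoglycan perlecan, by 1.26. ECE1, which processes endothelin, changed by -0.51, a call lost and a sign flipped with library size, and USP48, a deubiquitinase, had a value of -0.30 and was not called, but was called higher at 0.34 with library size.

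Alkaline phosphatases need a GPI anchor, and the genes that build and attach it were mixed. Of 31 GPI genes tested, 13 were higher in primed hESCs, 7 were lower and 11 were not called, with a median log2 fold change of 0.24, while 70.0% of all genes were called, 37.4% higher and 32.6% lower. The split moved to 21 higher, 3 lower and 7 not called with library size in place of TMM. DPM3, which holds the dolichol-phosphate mannose synthase in the membrane, fell by 1.33 with an adjusted p of 5.94e-10, while PIGL, the deacetylase of an early step, rose by 0.73 with an adjusted p of 7.49e-05, both by edgeR's quasi-likelihood test. DPM1, the catalytic subunit of that synthase, had a value of -0.50 whose call was lost and whose sign flipped with library size. PIGK, the protease subunit of the transamidase that attaches the anchor, had a value of -0.24 and was not called, but was called higher at 0.40 with library size, and 99.4% of its count lay on the ribosomal protein pseudogene RPL17P6 inside its span.

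Genes that handle the substrates of alkaline phosphatase were mixed as well. In vitamin B6 metabolism PDXK, the kinase that makes the phosphate forms, had 855 and 739 counts in naïve and 482 and 554 in primed hESCs and fell by 0.94 on the log2 scale, with the call lost under library size. PLPBP, which binds pyridoxal phosphate, rose by 0.46, and PDXP, its phosphatase, had a value of -0.04 and was not called.

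Of the 11 pyrophosphate and phosphate genes tested, 5 were higher, 2 were lower and 4 were not called, with a median of 0.08. With library size these were 9 higher, 1 lower and 1 not called. Over all genes 37.4% were higher, 32.6% were lower and 70.0% were called, so calls in this list and the next are read only as values. PPA1, the cytosolic pyrophosphatase, changed by -0.56, with the call lost and the sign flipped under library size. ANKH, which exports pyrophosphate precursors, the phosphate importer SLC20A2 and the mitochondrial pyrophosphatase PPA2 had values of 0.07, 0.08 and 0.04 and were not called, and RBBP4P1 held 91.9% of the ANKH count. For extracellular nucleotides and adenosine, 5 of 13 genes were higher, 4 were lower and 4 were not called, with a median of 0.16, or 8 higher, 2 lower and 3 not called with library size. The nucleoside transporter SLC29A1 fell by 1.05, ADA2, a secreted adenosine deaminase, rose by 0.99, and ADA, the intracellular enzyme, changed by -0.64, with the call lost under library size. The list also holds acid phosphatases, of which ACP1 had a value of 0.16 and was not called, but was called higher at 0.80 with library size.

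**Figure D5:**
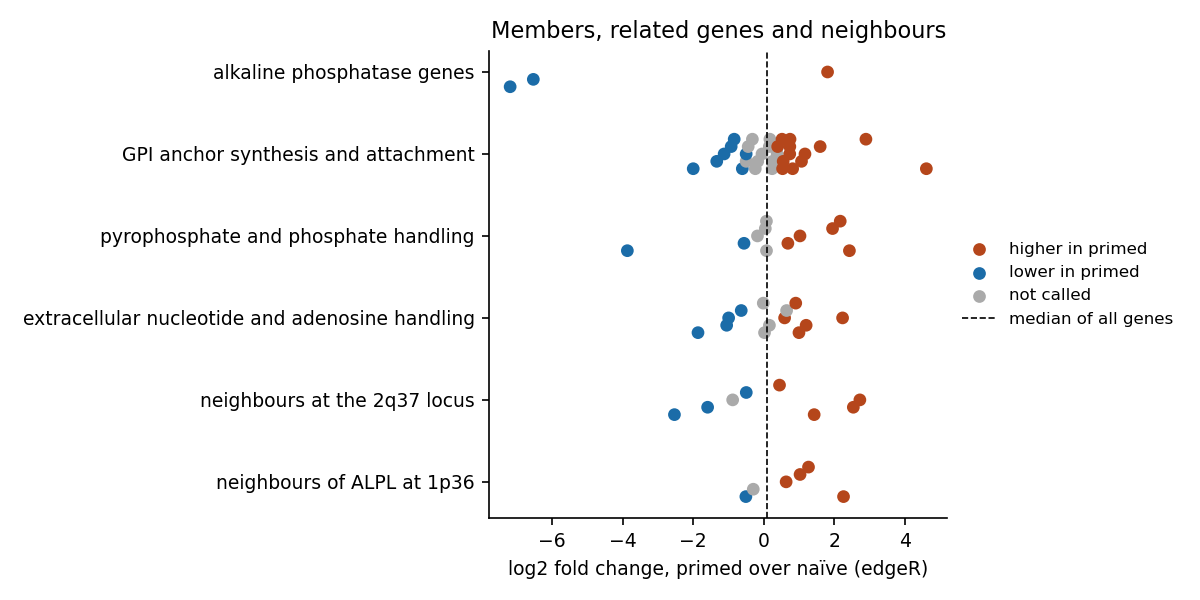
Log2 fold change of primed over naïve hESCs by edgeR for the 3 members tested and for the genes of 5 related lists, with 1 point per gene, orange where higher, blue where lower and grey where not called. ALPG at -7.19 and ALPP at -6.53 lie below every gene of these lists, and ALPL at 1.81 lies among them. The dashed line is the median of all genes, 0.079.

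Because the members are named after tissues, markers of those tissues were also read. Of 19 trophoblast and placenta markers tested, 18 were lower in primed hESCs, against 32.6% of all genes tested. The list was chosen with earlier results of these data known. Several of its genes, such as CGA and S100P, passed the count filter through the naïve libraries alone. The tally is therefore a description and not a test. KRT7 was not called, or was called higher with library size. The summed level of these markers was 3695 and 4018 CPM in naïve hESCs but 69.1 and 66.2 CPM in primed hESCs. PSG1, VGLL1, XAGE2, XAGE3 and S100P were at 0 in both primed libraries. CGB3, CGB5 and CGB8 had near equal naïve counts, at 9797 and 10696, 9344 and 10212, and 9158 and 9891. Each place of alignment was counted, so reads shared by these genes would enter the sum and the tally several times, which was not tested. An antisense gene inside the span of TFAP2A held 65.0% of its count, and 1 inside the span of KRT7 held 78% of the KRT7 count. Thus markers of the placenta moved with ALPP and ALPG, and their part in the result was not tested. In bulk libraries, fewer cells of a type and less RNA per cell cannot be told apart. CGA, the common subunit of the placental hormones, gave 35747 and 47550 counts in naïve hESCs but 0 and 1 in primed hESCs.

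Markers of the other tissues gave other patterns, set beside 70.0% of all genes called, 37.4% higher and 32.6% lower in primed hESCs. Of 9 germ cell markers tested, 4 were higher in primed hESCs, 3 were lower and 2 were not called, and their summed level was 55.1 and 58.1 CPM in naïve and 57.0 and 56.7 CPM in primed hESCs, with none at 0 in both libraries of a state. Only 3 of 10 intestine markers had enough counts to be tested, with 2 higher and 1 lower. The summed level of all 10 was 2.56 and 3.49 CPM in naïve and 4.24 and 4.59 CPM in primed hESCs. This sum was higher in both primed libraries, where most of it came from VIL1, at a mean of 3.26 CPM. CDX1 was the marker called lower, with 20 and 31 counts in naïve and 1 and 0 in primed hESCs, the same direction as ALPI. APOA4 and SI were at 0 in naïve and FABP2 in primed hESCs. Of 9 bone and mesenchyme markers tested, 6 were higher, 1 was lower and 2 were not called. Their summed level was 16.3 and 16.5 CPM in naïve and 132 and 126 CPM in primed hESCs, and it moved in the same direction as ALPL, with none at 0 in both libraries of a state. Most of the primed sum came from VIM, COL1A1 and COL1A2, at means of 53.3, 35.2 and 21.8 CPM, and 91.8% of the VIM count lay on another annotated gene inside its span. The bone genes RUNX2 and BGLAP rose by 0.92 and 0.83 on the log2 scale and were called higher. SPP1 and SP7, also bone genes, had values of 0.13 and -0.31 and were not called. IBSP had 1 to 3 counts per library, and TWIST1 fell by 3.08 on the log2 scale. The part of these markers in the ALPL result was not tested.

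The genes whose levels followed each member most closely over the 4 libraries were searched among 11852 protein-coding genes, by the distance between centred log2(CPM + 1) values. For ALPG these were CRIP1, NLRP2 and CGB7, at distances of 0.285, 0.476 and 0.552. CRIP1 had 4144 and 3654 naïve counts against 43 and 51 primed counts. For ALPP they were C19orf85, HUS1 and CCKBR, at distances of 0.190, 0.275 and 0.300, and HUS1 had 1298 and 1099 against 126 and 136 counts. For ALPL they were BDNF, SNURF and TUBB2B, at distances of 0.059, 0.064 and 0.073, and TUBB2B had 1001 and 888 against 4080 and 3915 counts. That none of the genes nearest to ALPG is among those nearest to ALPP follows from the scale. The lower levels of ALPP give it a much smaller change in log2(CPM + 1) than ALPG. On this scale the added 1 shrinks changes of low levels, so a near gene need not have a similar fold change. The log2 fold changes of C19orf85, HUS1 and CCKBR were -5.41, -3.51 and -3.91 against -6.53 for ALPP, and that of BDNF was 3.43 against 1.81 for ALPL. Those of CRIP1, NLRP2 and CGB7 were -6.69, -6.69 and -7.27 against -7.19 for ALPG.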

How the data were processed

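RNA of naïve and primed H1 hESCs (4 libraries, 2 per state) was sequenced as Nanopore cDNA. The authors aligned the reads with minimap2 to GRCh38 and deposited, per the file headers, raw counts per transcript of Ensembl 105 from featureCounts 2.0.0 in long-read mode. Whole spans were counted, introns included and strand ignored, each alignment for every transcript it overlapped and at every place it aligned. The header holds the option for several places, and the study's methods list only the overlap and long-read options.

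Of 244825 transcripts, 242542 matched GENCODE 44, 97.9% of them with the same coordinates, and the 2283 others, holding 1% of counts, were left out. Each gene was represented by the isoform whose mean count was largest. Features needed 10 counts or more in 2 or more libraries, and were tested over all genes or transcripts by edgeR 4.0.16 in R 4.3.3 (TMM, quasi-likelihood, state as the only term, two-sided, Benjamini-Hochberg, adjusted p under 0.05), and isoform usage by diffSpliceDGE with a dIF (difference in isoform fraction) beyond 0.1. The standard error is the log2 fold change over the root of the F statistic. The fits were tested on simulated data. Alternatives were DESeq2 1.42.0, library size scaling, a replicate block, other filters, isoform sums and leaving out each library.

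The members and lists were chosen with earlier results of these data known. Named are the members, the 4 genes of each list with the most counts (in part not reported here), and the 3 genes per member with the most alike pattern among those with a mean count of at least 50. Identities are from pairwise alignments in Biopython 1.88, and promoters from RefSeq. Identity is between nucleotide sequences, since protein sequences were not used here. Tables used pandas 2.3.3 and scipy 1.17.1 in Python 3.11.15.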

Additional observations from a re-analysis of the deposited data

How the results depend on the processing

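The log2 fold changes of ALPP, ALPG and ALPL kept their direction and their call under all alternatives run, at -7.71 to -5.90 for ALPP (10 alternatives, largest adjusted p 2.89e-06), -7.50 to -6.54 for ALPG (11 alternatives, largest adjusted p 1.39e-07) and 1.65 to 2.45 for ALPL (10 alternatives, largest adjusted p 1.48e-05). The 11 transcripts tested kept theirs in 88 of 88 recomputed values. Scaling by library size alone gave 15524 genes higher and 4511 genes lower in primed hESCs, against 10327 and 9007 with TMM. Isoforms called for usage over all genes numbered 493 to 555 when a library was left out, against 888, and 6798 with no dIF threshold, and 0 member isoforms were called under every alternative. With a library left out, the lone library of a state was taken to vary like the other state. The GPI, vitamin B6, phosphate and nucleotide lists had 31, 4, 11 and 13 genes tested. The genes called over these lists numbered 39, or 32 with DESeq2 and 46 with library size. Over all genes 70.0% were called, so this number is read only as a value. The split of these lists moved towards higher with library size.

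Replicate numbers were not shown to pair the libraries, since deviations from the state means of naïve rep1 and primed rep1 had a correlation of 0.0409 over 27632 genes. With the replicate number as a block, ALPP was at -6.51, ALPG at -7.16 and ALPL at 1.81, 19688 genes were called against 19334, and no member changed its call.

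Depth limits ALPI, which was tested only under the settings with no filter or with isoforms summed, and the primed level of ALPP, which rests on 1 and 4 counts.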

Other observations

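Beyond the genes named by the fixed rule, a few genes of the GPI, phosphate and nucleotide lists were picked after their values were seen. PIGM, the mannosyltransferase that adds the first mannose of the GPI anchor, gave 6 counts in both naïve replicates but 195 and 172 in primed hESCs, and rose by 4.60 on the log2 scale (edgeR, adjusted p 7.88e-16). PGAP4, which modifies the anchor in the Golgi, had 24 and 22 counts in naïve and 230 and 194 in primed hESCs and rose by 2.89. PIGA, a subunit of the enzyme of the first step, had 81 and 78 counts in naïve and 29 and 20 in primed hESCs and was lower in primed hESCs (edgeR, adjusted p 1.31e-07). Steps of the same route thus changed in opposite directions.

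In the other lists, the sodium-phosphate cotransporter SLC34A2 had 64 and 93 counts in naïve and 8 and 5 in primed hESCs and fell by 3.87 (edgeR, adjusted p 4.41e-12). ENPP1, the enzyme that makes extracellular pyrophosphate, had 121 and 160 counts in naïve and 328 and 378 in primed hESCs and rose by 1.02, the same direction as ALPL, which breaks pyrophosphate down. ACP5, the tartrate-resistant acid phosphatase, had 318 and 258 counts in naïve and 79 and 118 in primed hESCs and fell by 1.86. These genes kept their direction with library size in place of TMM.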
